A study of Drosophila melanogaster with 6 samples.

Results

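Proteasome subunit genes were examined in fragments of the wing imaginal disc of Drosophila melanogaster, the larval epithelium from which the adult wing blade, its hinge and the dorsal thorax arise. The genes were taken by name: every probe set with a single gene symbol beginning with Prosalpha or Prosbeta, or with Rpn or Rpt and a digit. The rule found 41 of the 13966 fly probe sets on the array, for 39 genes. Of these, 26 genes encode subunits of the proteasome (28 probe sets), and 13 are paralogs, whose symbols carry a T or an R after the subunit number (13 probe sets). From wild-type third-instar discs, body wall pieces and pieces holding the wing and hinge were dissected apart, and total RNA of each kind of fragment was measured on 3 Affymetrix arrays, named body wall 1 to 3 and wing/hinge 1 to 3. No allele, treatment or exact age is given in the labels, which call the arrays biological replicates and do not say how discs were pooled. The p-values below therefore measure the spread between these 6 arrays.

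The proteasome degrades proteins that carry a chain of ubiquitin. Its core particle is a barrel of stacked alpha and beta rings with the protein-cutting sites inside, and the regulatory particle on each end has a base, whose Rpt ATPases unfold the substrate, and a lid, which removes the ubiquitin. In imaginal discs the proteasome acts in patterning as well as in general protein turnover: the Hedgehog effector Cubitus interruptus is partially processed by it, and the Wingless effector Armadillo is degraded by it.

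The fragments carried the marker genes their labels call for. All 4 body wall markers fixed for this check (pnr, eyg, B-H1 and sr) were higher in body wall, and 4 of 5 wing and hinge markers (nub, pdm2, Dll and zfh2) were higher in wing/hinge (limma adjusted p under 0.05). The remaining one, vg, read 657 to 882.8 in body wall and 1348 to 1978 in wing/hinge but was not called (limma adjusted p = 0.174). Each marker was read at its brightest probe set. A dimmer one of nub was called too, but another of nub and those of pdm2 and zfh2 were not. Marker genes of other cell types also gave more signal in body wall. The summed intensity of 4 adult muscle precursor markers was 1665 to 2005 on body wall arrays and 104.6 to 137.9 on wing/hinge arrays, and that of 4 haemocyte markers was 1314 to 1595 on body wall arrays, against 314.9 to 421 on wing/hinge arrays. For 3 fat body markers the sums were 847.1 to 1036 in body wall and 214.4 to 705.1 in wing/hinge. By the same test all 4 muscle precursor markers were called toward body wall, but 1 of the 4 haemocyte markers (Col4a1, which with vkg makes up most of that sum) and 0 of the 3 fat body markers. Their part in the values below was not tested, and in such bulk samples fewer cells of a type and less RNA per cell cannot be told apart. Body wall 1, wing/hinge 1 and wing/hinge 2 form a set with brightest values of 24976 or more and a 3' to 5' ratio of the actin control of 1.92 to 2.98. In the set of body wall 2, body wall 3 and wing/hinge 3 the brightest values were 14881 or less and that ratio was 1.12 to 1.28. They are called the wide-range and narrow-range arrays below. All values are intensities on a linear scale, and those under a floor of 20.4 were raised to it before log2 was taken.

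Proteasome subunit genes were strongly detected in both fragments, and none of them passed the test of a difference between body wall and wing/hinge. Of the 28 subunit probe sets, 26 exceeded, on all 6 arrays, the highest value of 23 control probe sets without a fly target (91.8; bacterial, yeast and mouse sequences), and these 26 ran from 757.8 to 7980. The test (limma, Benjamini-Hochberg adjusted over all 11698 probe sets that passed a filter on low values) called 0 of the 37 members tested, 27 for subunits and 10 for paralogs. It called 0.915% of all probe sets tested, 0.59% toward body wall and 0.325% toward wing/hinge, and a count of 0 among 37 is near that share. At an unadjusted limma p under 0.05 there was 1 member, the paralog Rpn13R, against 8.97% of all probe sets. With a trended and robust variance model limma also called 0 members, with 0 at an unadjusted p under 0.05.

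**Figure D1:**
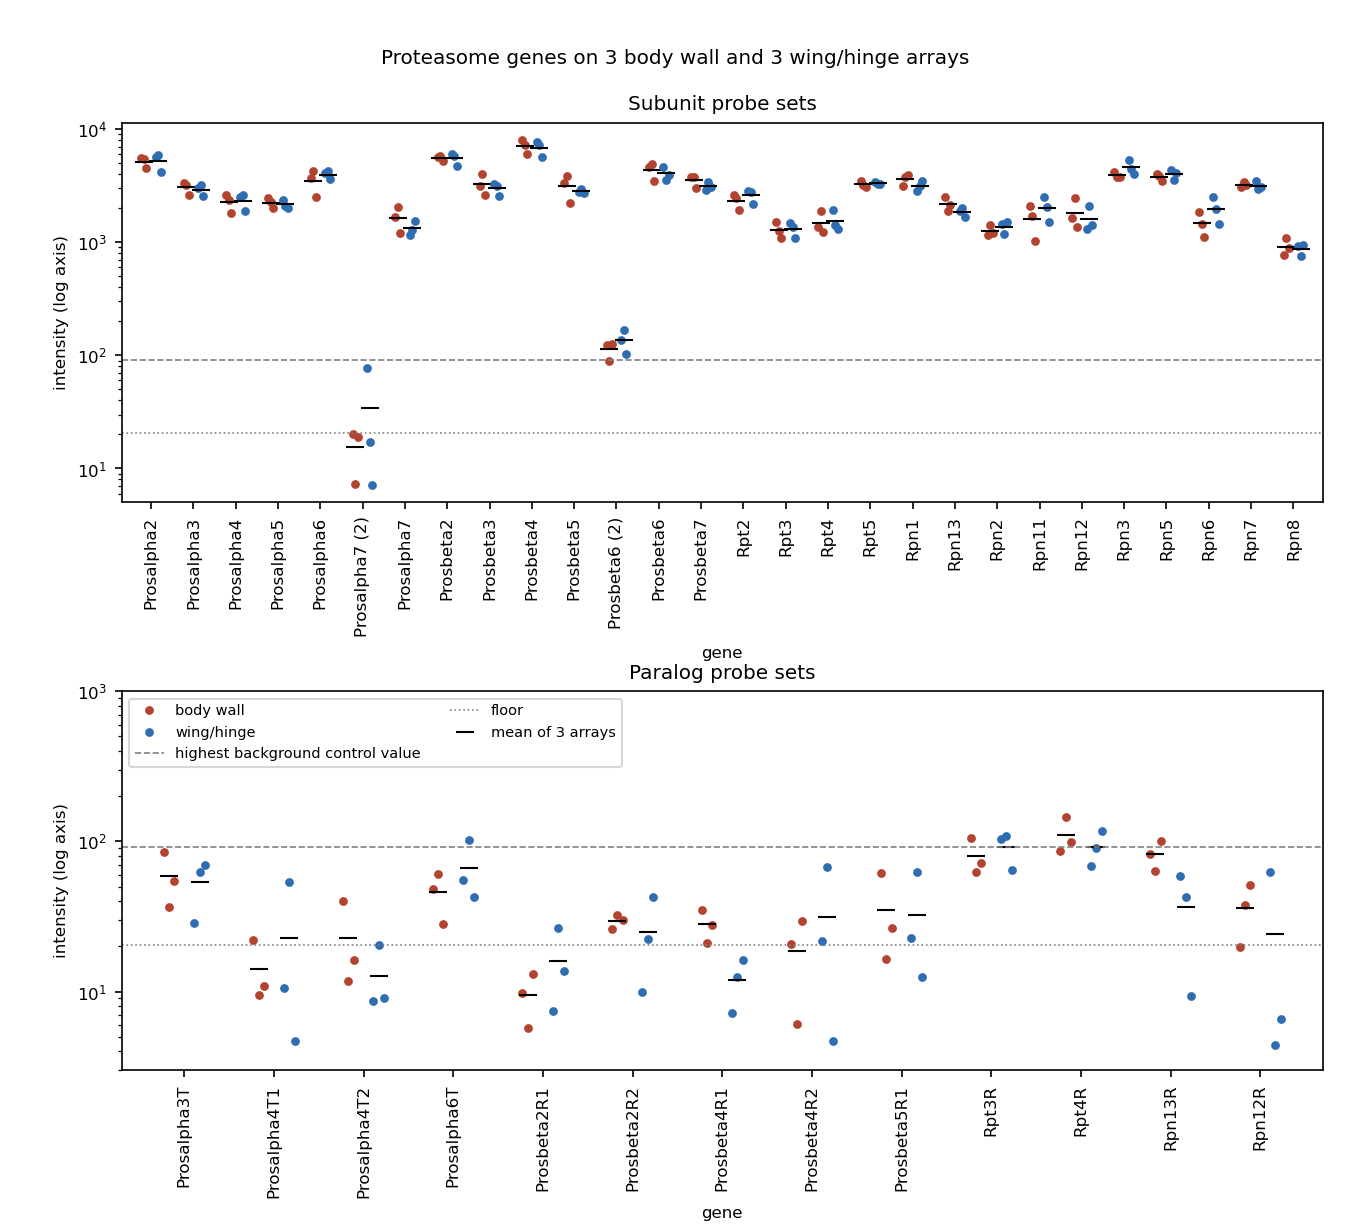
Intensity (log axis) of each proteasome probe set on the 3 body wall arrays (red) and the 3 wing/hinge arrays (blue), with black bars for the means, the highest background control value (91.8, dashed) and the floor (20.4, dotted). A "(2)" marks the dimmer of 2 probe sets of a gene; nearly all subunits lie far above both lines with the colours at one height, while the paralogs lie around or under the dashed line.

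The log2 differences, body wall minus wing/hinge, of the 27 tested subunit probe sets were small and lay on both sides of 0. They ran from -0.42 for Rpn6 to 0.27 for Prosalpha7, with a median of 0.0051, and 14 were above 0 and 13 below. All 27 were under 0.5 in size, which held for 72.6% of all probe sets tested. The arrays bound these differences as follows. For 25 of the 27 the 95% interval of the limma fit, not adjusted for the number of intervals, lay within a 2-fold difference in either direction, against 41.2% of all probe sets. Over all 27 intervals the upper ends reached 1.90-fold higher in body wall (Rpn12) and the lower ends 2.27-fold higher in wing/hinge (Rpn11). In no tested subunit did the 3 values of one fragment all lie above the 3 of the other, which occurred in 15% of all probe sets tested, 8.48% with body wall higher and 6.53% with wing/hinge higher. The standard errors of the subunits' log2 differences were 0.20 to 0.35 (median 0.24, against 0.32 over all probe sets tested). The intervals give the differences that 3 arrays per fragment leave possible. They are no limit of detection, since a call required an adjusted p under 0.05 in the limma test. The values over all probe sets include many dim ones, since the median intensity of an array was 89.6 to 117.8, against 757.8 or more for 26 subunit probe sets. No comparison with probe sets of like brightness was made.

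**Figure D2:**
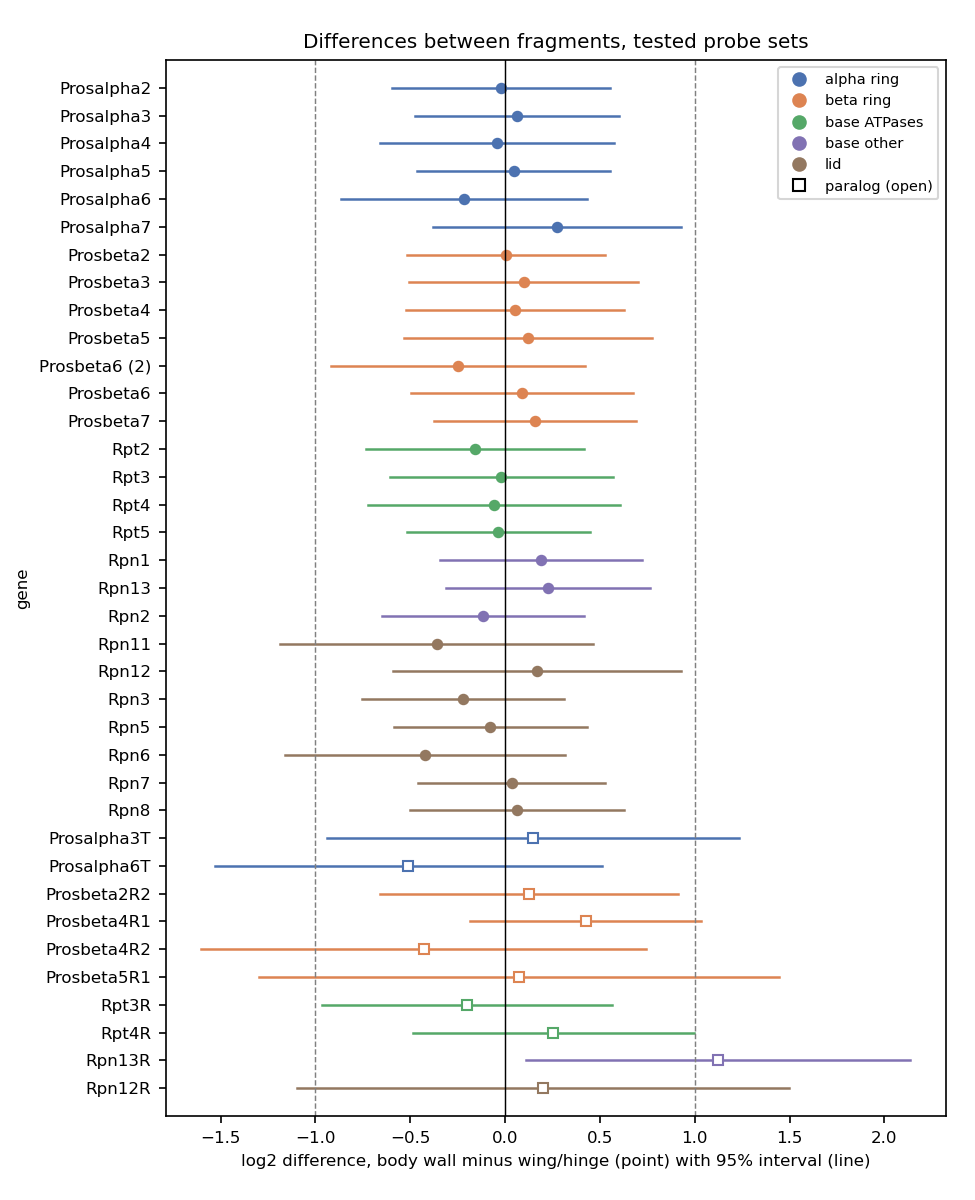
Log2 difference, body wall minus wing/hinge (points), with the 95% interval of the limma fit (lines) for the 27 tested subunit probe sets (filled circles) and the 10 tested paralogs (open squares), coloured by position in the particle; dashed lines mark a 2-fold difference. Every subunit interval includes 0, and only those of Rpn6 and Rpn11 pass the dashed line on the left.

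The alpha ring forms the outer gates of the core particle, through which substrates enter. Its 6 tested probe sets, 1 for each of Prosalpha2 to Prosalpha7, differed by -0.22 to 0.27 on the log2 scale (median 0.012), 3 on each side of 0. Prosalpha2 averaged 5152 ± 544 in body wall and 5269.8 ± 926 in wing/hinge (intensity, mean ± SD, n = 3 each, here and below). Prosalpha3 averaged 3055 ± 367 in body wall and 2922 ± 322 in wing/hinge. These log2 differences of -0.022 and 0.063 were far smaller than the spread between arrays of one fragment. Prosalpha5 was the steadiest of the ring, between 1998 and 2440.1 on all 6 arrays (log2 difference 0.046). Prosalpha4 gave -0.044 and Prosalpha6 gave -0.22.

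Prosalpha7 showed the largest positive difference of a subunit. It measured 1678, 2029.9 and 1212 on body wall arrays 1 to 3, and 1167, 1295 and 1545 on wing/hinge arrays 1 to 3. The fragments overlapped, since the body wall held both the highest value and one below a wing/hinge value. The log2 difference was 0.27 (SE 0.27, 95% interval -0.38 to 0.93; limma adjusted p = 0.849), and it was 0.45 on the wide-range arrays and 0.022 on the narrow-range arrays. A further Prosalpha7 probe set read 7.3 to 77.7 and lay above the floor on 1 array, so it failed the filter and was not tested.

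The beta ring holds the protease sites, of which Prosbeta2 carries the trypsin-like and Prosbeta5 the chymotrypsin-like one. Prosbeta2 measured 5663, 5784 and 5204 in body wall, and 6078, 5836 and 4755 in wing/hinge. The wing/hinge values enclosed those of body wall, and the log2 difference was 0.0051 (SE 0.22, 95% interval -0.51 to 0.52; limma adjusted p = 0.997), the smallest in size of all members tested. Prosbeta5 measured 3359, 3859 and 2201 in body wall, and 2763, 2985 and 2698 in wing/hinge. Here the body wall values enclosed those of wing/hinge, with body wall 3 lowest of all (log2 difference 0.12, SE 0.27, 95% interval -0.53 to 0.77; limma adjusted p = 0.939).

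The other beta subunits, which are not known for a protease site of their own, also gave small differences. Prosbeta4 averaged 7092 ± 1008 in body wall, against 6847 ± 1052 in wing/hinge (log2 difference 0.053). Prosbeta3 averaged 3240.4 ± 689 in body wall, against 2999 ± 375 in wing/hinge (0.098). Prosbeta7 averaged 3516 ± 458 in body wall, against 3140.2 ± 264 in wing/hinge (0.16), and for all 3 the difference of the means was smaller than the larger of both SDs. Prosbeta6 is known in flies from a dominant temperature-sensitive allele used to block the proteasome. Its bright probe set averaged 4338 ± 746 in body wall and 4065 ± 559 in wing/hinge (log2 difference 0.087). A dimmer Prosbeta6 probe set, at 89.8 to 168.1 close to the control values, gave -0.25 (SE 0.28). It was the only one of the 7 tested beta subunit probe sets below 0, and the median of the ring was 0.087.

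Of the base ATPases, which form a ring of their own and unfold the substrate, Rpt2, Rpt3, Rpt4 and Rpt5 were measured. All 4 lay slightly below 0, at -0.16, -0.020, -0.059 and -0.035, none of them beyond its standard error of 0.20 to 0.28. Rpt5 was the steadiest subunit gene over all 6 arrays, at 3241 ± 220.4 in body wall and 3316 ± 85.8 in wing/hinge, with a ratio of highest to lowest value of 1.14. That ratio had a median of 1.42 over the tested subunit probe sets. Rpt4 averaged 1491 ± 347 in body wall, against 1549 ± 336 in wing/hinge. Rpt3 averaged 1286 ± 217 in body wall, against 1303 ± 202 in wing/hinge. Rpt2 averaged 2329 ± 371 in body wall, against 2592 ± 348 in wing/hinge, the largest gap of the 4 and still within 1 SD.

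The remaining base subunits are the scaffold proteins Rpn1 and Rpn2 and the ubiquitin receptor Rpn13. Rpn13 measured 2509, 1905 and 2125 in body wall, and 1903, 1997 and 1670.2 in wing/hinge. Body wall 1 and body wall 3 exceeded all wing/hinge values, but body wall 2 lay among them (log2 difference 0.23, SE 0.23, 95% interval -0.31 to 0.76; limma adjusted p = 0.848). The difference was 0.36 on the wide-range and 0.27 on the narrow-range arrays. Rpn1 averaged 3609 ± 427 in body wall, against 3161 ± 333 in wing/hinge (0.19). Rpn2 averaged 1266 ± 130.3 in body wall, against 1375 ± 171 in wing/hinge (-0.12).

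The lid held the widest range of differences among the subunits, from -0.42 to 0.17 over 7 genes (median -0.079), and the negative end was made up of Rpn6, Rpn11 and Rpn3. Rpn6, a scaffold protein that clamps lid and core together, measured 1846, 1458 and 1118 in body wall, and 2537, 1958 and 1455 in wing/hinge. Each body wall array was lower than the wing/hinge array of the same rank, yet the groups overlapped. The log2 difference was -0.42 (SE 0.31, 95% interval -1.16 to 0.32; limma adjusted p = 0.792), with -0.27 on the wide-range and -0.19 on the narrow-range arrays.

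Rpn11 is the deubiquitinase of the lid, which cuts the ubiquitin chain from the substrate. It measured 2104 on body wall 1, 1708 on body wall 2 and 1028 on body wall 3, against 2496, 2055 and 1522 on wing/hinge 1 to 3. It varied most of all subunit genes over the arrays, by 2.43-fold between the highest and the lowest value, and the fragments overlapped. Its log2 difference was -0.36 (SE 0.35, 95% interval -1.18 to 0.46; limma adjusted p = 0.843). With arrays of one range only it was -0.11 (wide) and -0.20 (narrow), both smaller than over all 6 arrays.

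Rpn3, a structural lid subunit, measured 4204, 3789.7 and 3766 in body wall, and 5358, 4474 and 3978 in wing/hinge. Body wall 1 lay above wing/hinge 3, so these groups overlapped as well (log2 difference -0.22, SE 0.22, 95% interval -0.76 to 0.31; limma adjusted p = 0.850). Differences of the other lid genes were 0.17 for Rpn12, 0.063 for Rpn8, which pairs with Rpn11, 0.035 for Rpn7 and -0.079 for Rpn5. Rpn7 averaged 3227 ± 164 in body wall, against 3154 ± 263 in wing/hinge. Rpn8 averaged 916 ± 156 in body wall, against 873 ± 99.6 in wing/hinge.

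The 13 paralogs, several of them known in flies as forms of the male germ line, gave little or no signal above the controls. Of their 78 values, 25 were at or under the floor of 20.4 and 8 exceeded the control maximum of 91.8. No paralog exceeded it on all 6 arrays, and 9 exceeded it on none. Of the 10 that passed the filter, 7 had a log2 difference above 0 and 3 below, and 3 had an interval within a 2-fold difference. Among the 7, Prosbeta4R1 passed the filter only through its body wall values. Prosalpha4T1, Prosalpha4T2 and Prosbeta2R1 were above the floor on 1 or 2 arrays and were not tested. For comparison, 6 testis genes fixed as markers (bam, aly, can, sa, mia and topi) had summed intensities of 186.5 to 375.7 in body wall and 186 to 240.8 in wing/hinge, with sa under the floor on every array.

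Rpn13R, a paralog of the ubiquitin receptor Rpn13, was the member with the smallest p. It measured 82, 63.1 and 101.2 in body wall, and 58.5, 42.4 and 9.4 in wing/hinge. The 3 body wall values lay above the 3 wing/hinge values, by a narrow margin between 63.1 and 58.5, and 1 array exceeded the control maximum. The log2 difference was 1.12 (SE 0.43, 95% interval 0.11 to 2.14; limma adjusted p = 0.483), with wing/hinge 3 raised to the floor. It was 0.72 on the wide-range and 1.97 on the narrow-range arrays. The subunit Rpn13 itself differed by 0.23, as given above, and the difference between both was not tested.

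Prosbeta4R1 was the other paralog whose fragments did not overlap. It measured 35.2, 21.2 and 27.6 in body wall, and 7.2, 12.5 and 16.3 in wing/hinge, where every value was under the floor. It passed the filter, above the floor on at least 3 of 6 arrays, only through its body wall values. The log2 difference of 0.43 (SE 0.26, limma adjusted p = 0.724) is therefore computed against the floor. Like the lack of overlap, it is no independent sign of a difference. The levels in both fragments lay within the range of the control probe sets. Prosbeta4R2, separated from it by 1 protein-coding gene in the RefSeq annotation, measured 20.6, 6.1 and 29.3 in body wall, and 21.7, 67.8 and 4.7 in wing/hinge (log2 difference -0.43, SE 0.49; limma adjusted p = 0.875). Its difference was -0.90 on the wide-range and 0.26 on the narrow-range arrays, and 0.13 without wing/hinge 2.

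The brightest paralogs were those of the ATPases. Rpt4R measured 86.8, 144.7 and 99.4 in body wall, and 68.8, 91 and 117.6 in wing/hinge, with 3 arrays above the control maximum (log2 difference 0.25, SE 0.31; limma adjusted p = 0.880). Rpt3R measured 106.1, 62.8 and 71.8 in body wall, and 103.5, 108.3 and 64.8 in wing/hinge (-0.20, SE 0.32; limma adjusted p = 0.913). Both overlapped between the fragments, as did the subunits Rpt4 and Rpt3.

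The other tested paralogs overlapped between the fragments. Prosalpha6T measured 48.5, 60.9 and 28.4 in body wall, and 55.7, 102 and 42.6 in wing/hinge (log2 difference -0.51, SE 0.43; limma adjusted p = 0.819). This was the largest negative difference of all members over 6 arrays, but it was -0.15 without wing/hinge 2, -0.20 without body wall 3 and -0.035 on the narrow-range arrays. Prosalpha3T measured 85.1, 36.8 and 54.2 in body wall, and 28.6, 62.6 and 69.8 in wing/hinge (0.15, SE 0.46). Its sign turned with the array set, at 1.01 on the wide-range and -0.64 on the narrow-range arrays. Prosbeta5R1 measured 61.9, 16.5 and 26.5 in body wall, and 22.6, 62.2 and 12.5 in wing/hinge (0.074, SE 0.58). Prosbeta2R2 measured 26, 32.2 and 30.2 in body wall, and 10, 22.4 and 42.4 in wing/hinge (0.13, SE 0.33), and turned likewise, at 0.28 on the wide-range and -0.44 on the narrow-range arrays. Rpn12R measured 19.7, 37.7 and 51 in body wall, and 62.1, 4.4 and 6.6 in wing/hinge (0.20, SE 0.54), with 1 high array in wing/hinge. Its difference was -0.80 on the wide-range and 1.10 on the narrow-range arrays.

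As deposited, subunit genes tended to be low on body wall 3 and wing/hinge 3. Relative to the mean of the same fragment, 20 of 27 tested subunit probe sets were above it on body wall 1 and 22 on body wall 2, but 2 on body wall 3. On the wing/hinge arrays 22 were above the mean on array 1, 17 on array 2 and 5 on array 3. The median deviation was -0.23 on body wall 3 and -0.15 on wing/hinge 3 (log2), where that of all probe sets tested was 0.056 and 0.020. Rpn1 and Prosbeta6, at its dimmer probe set, were the exceptions above the mean on body wall 3.

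As deposited, both particles were low on these arrays. Of the 13 probe sets of the core particle, 1 was above the fragment's mean on body wall 3 and 1 on wing/hinge 3, with median deviations of -0.23 and -0.18. In the regulatory particle 1 and 4 of 14 were above it, with median deviations of -0.098 and -0.15. Altogether 16 of 27 subunit probe sets (59.3%) had their lowest value of the fragment on array 3 in both fragments, against 12.5% of all probe sets tested. Mitochondrial ribosomal protein genes showed it in 48.5% and cytosolic ribosomal protein genes in 9.68%. The pattern depended on scaling. With each array at a common median, 2 of 27 subunit probe sets were above the mean on body wall 3 and 4 on wing/hinge 3. The median deviations there were -0.34 and -0.20, against -0.058 and -0.026 over all probe sets tested. On wing/hinge 2, 6 subunit probe sets were above the mean, with a median deviation of -0.060. That of all probe sets tested was lower on this array, at -0.10. After quantile normalization 6 of 27 subunit probe sets were above the mean on body wall 3 (22.2%) and 10 on wing/hinge 3 (37.0%). Of all probe sets tested, 50.7% and 50.3% were above it on these arrays. In the regulatory particle 5 of 14 were then above the mean on body wall 3 and 6 on wing/hinge 3, and in the core particle 1 of 13 and 4 of 13 on the same arrays. The 3' to 5' ratio of the actin control was 1.12 on body wall 3 and 1.21 on wing/hinge 3, the 2 lowest of the 6 arrays. It was 1.28 on body wall 2, the remaining narrow-range array. The other controls ranked these arrays otherwise. The GAPDH ratio was lowest on body wall 2 (2.12), with 2.51 on body wall 3 and 2.56 on wing/hinge 3. The eIF-4a ratio was 1.74 on body wall 3, above both wing/hinge 3 (1.45) and body wall 2 (1.48). The part of RNA quality or array range in the pattern was not tested. With any 1 array left out, the subunits' log2 differences between fragments ranged from -0.63 (Rpn6 without wing/hinge 3) to 0.48 (Prosalpha7 without body wall 3), and none was called.

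**Figure D3:**
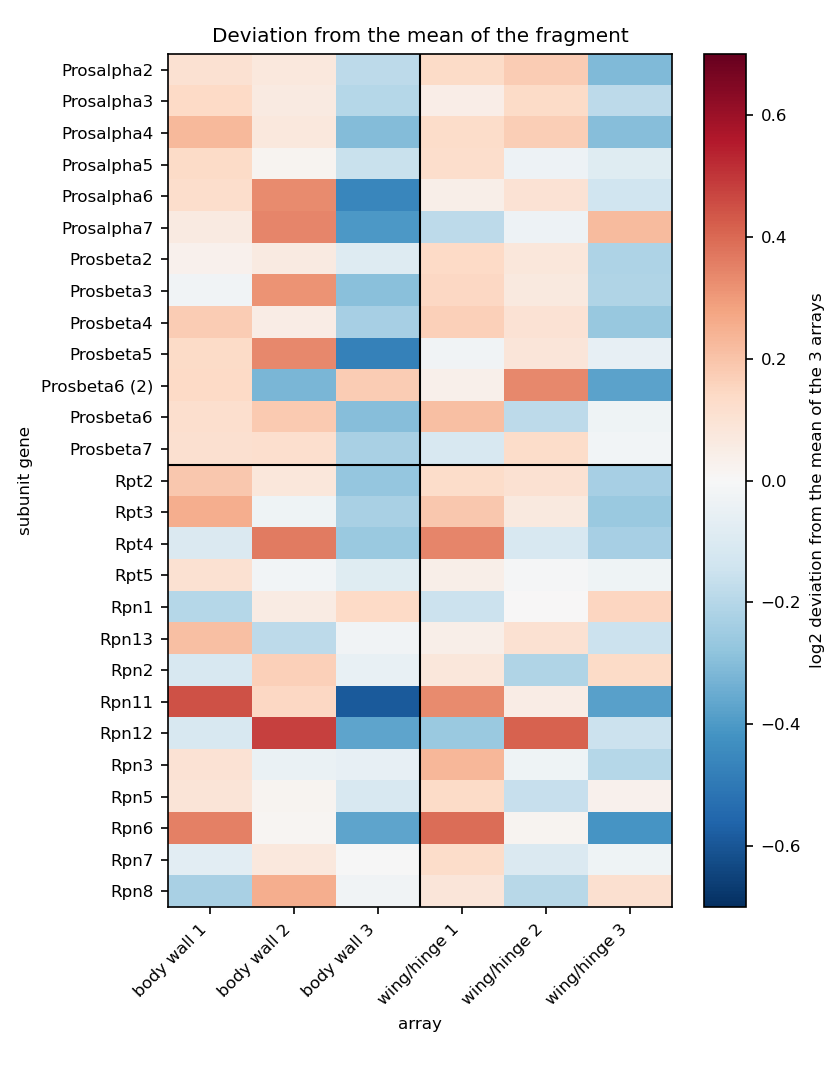
Log2 deviation of each tested subunit probe set (down the page, core particle above the line and regulatory particle below it) from the mean of the 3 arrays of its fragment, for each array (across). Blue fills most of the columns of body wall 3 and wing/hinge 3, where 2 and 5 of 27 probe sets lay above the mean.

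Beside ribosomal protein genes, also taken by name, the subunits spread little. Their median size of the log2 difference, whatever its sign, was 0.098, against 0.28 over all probe sets tested. For 66 mitochondrial ribosomal protein probe sets it was 0.17, around a median difference of 0.14, and for 31 cytosolic ones 0.37, around a median of -0.35. That cytosolic median did not hold within the array sets, at 0.31 on the wide-range and -0.018 on the narrow-range arrays. The limma test called none of either set, with 1 of each at an unadjusted p under 0.05, and with the trended variance model it called 0 of each as well. The cytosolic genes differed more between arrays of one fragment, with a median standard error of 0.49 against 0.24 for the subunits. Of their intervals 16.1% lay within 2-fold, against 92.6% of the subunits'. The mitochondrial genes lay closer to the subunits, with a median standard error of 0.27 and 72.7% of intervals within 2-fold. The sets were not chosen alike, since the proteasome paralogs were kept out of the subunits. Of 33 cytosolic probe sets with a single symbol of the name pattern, 31 were tested, and no paralogs were kept out. They held symbols such as RpL7-like and RpS19b, and ran from -3.07 (RpL17) to 1.40 (RpS19b). Whether the proteasome differs from these sets was not tested.

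**Figure D4:**
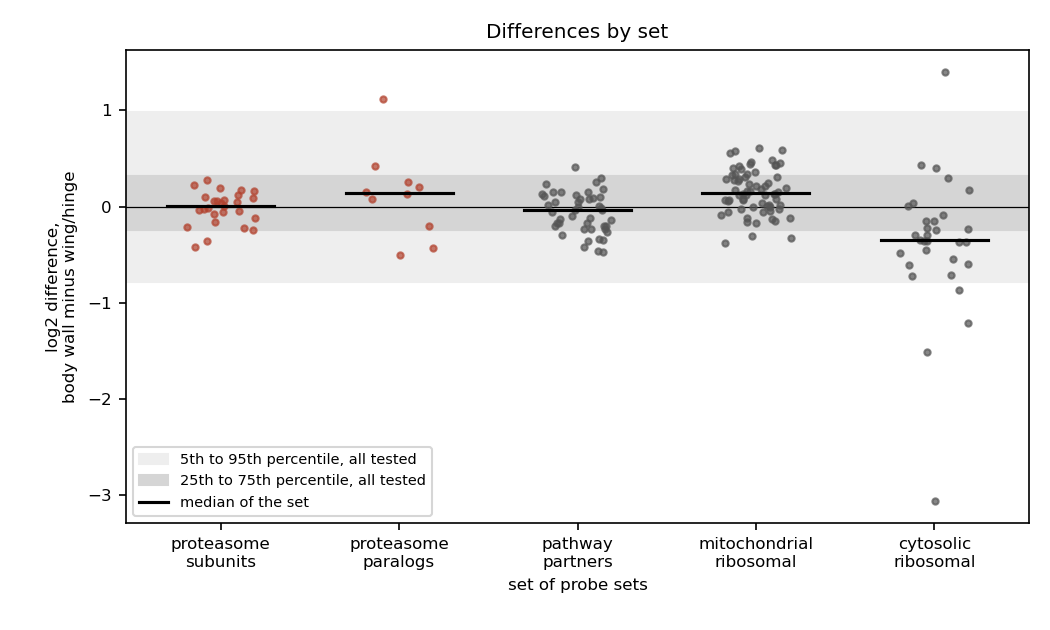
Log2 differences, body wall minus wing/hinge, of single probe sets in 5 sets (points, spread sideways at random) with the median of each set (bars); shaded bands give the 25th to 75th and the 5th to 95th percentile of all 11698 probe sets tested. The proteasome subunits lie between -0.42 and 0.27, inside the outer band (-0.78 to 0.98).

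Genes that act with the proteasome gave log2 differences from -0.47 (Cul5) to 0.41 (CSN7) at their brightest probe sets. Of 52 genes listed, 46 had a probe set and 45 were tested, each by its brightest one (median log2 difference -0.040). The limma test called 0, with 0 at an unadjusted p under 0.05 and 0 calls with the trended variance model. Over all probe sets tested, limma called 0.915%, and 8.97% had an unadjusted p under 0.05. Some intervals of the limma fit reached past a 2-fold difference, as for Nedd8 (-1.47 to 0.55) and cnc (-1.04 to 1.06). Others stayed within it, as for rngo (-0.49 to 0.50) and Pomp (-0.48 to 0.72). Among 5 genes for assembly, activation and inhibition (median 0.12), the assembly chaperone gene PSMG1 was highest at 0.30 and PI31, a proteasome-binding regulator, lowest at -0.20. Pomp, the maturation factor of the core particle, measured 1111, 987 and 765.1 in body wall, and 957.8, 942.5 and 728.7 in wing/hinge (0.12). The activator gene REG gave -0.18 and the small lid subunit gene Sem1 0.18.

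Of 9 genes for ubiquitin supply and activation (median -0.17), the polyubiquitin gene Ubi-p63E was lowest at -0.42 and the conjugating enzyme gene Ubc7 highest at 0.10. Ubi-p63E measured 11307, 7561 and 7997 in body wall, and 12312, 15375 and 8721 in wing/hinge (limma adjusted p = 0.780). It shares its coding repeat with other ubiquitin genes, so its signal may include theirs. The genes RpL40 and RpS27A of this list encode ubiquitin fused to a ribosomal protein and also belong to the cytosolic ribosomal set. For 9 deubiquitinases and shuttle factors (median -0.040) the extremes were Usp14 at 0.23, whose dimmer probe set gave -0.72, and Ufd1 at -0.29. The segregase gene TER94, whose product extracts ubiquitinated proteins for degradation, gave -0.17.

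The transcription factor gene cnc, the fly relative of the factors that induce proteasome genes in mammals, gave 0.013 at its brightest probe set and 0.58 and -0.54 at 2 dimmer ones. Its partner gene maf-S gave 0.051 and its inhibitor gene Keap1 0.15. Among 10 tested genes of cullin ubiquitin ligases (median -0.22) SkpA was highest at 0.15 and Cul5 lowest at -0.47, with intensities of only 42.3 to 126.3. The ubiquitin-like modifier gene Nedd8, which activates cullins, measured 3395, 2666 and 1403 in body wall, and 4036, 3918 and 2099.7 in wing/hinge (-0.46; limma adjusted p = 0.837), again lowest on array 3 of both fragments. The COP9 signalosome, a complex related to the lid, removes Nedd8 from cullins. Its 9 genes had a median of 0.075, between CSN7 at 0.41 and CSN8 at -0.23.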

How the data were processed

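The authors deposited a linear intensity for every probe set of every array. Per the labels, about 8 ug of total RNA went into each target, by the standard Affymetrix procedure. The summary software is not given in the sources used here, and a 2% trimmed mean of 300.04 to 300.05 per array shows prior scaling, so no further scaling was done. Groups and replicate numbers come from the sample titles, and gene names from a platform annotation table. The 39 gene IDs matched the RefSeq table (Release 6) with no symbol changed. The rule's name pattern fits 48 protein-coding RefSeq genes. The other 9, Prosbeta1, Rpt1, Rpt6, Rpn9 and Rpn10 among them, are not analysed here, and Prosalpha1 and its copy share a probe set outside the rule.

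Values under the 20th percentile (20.4) were raised to it. Probe sets above it on at least 3 of 6 arrays entered a two-sided limma fit of the 2 fragments (lmFit, eBayes; limma 3.58.1 under R 4.3.3). P-values of all 11698 probe sets were adjusted together by Benjamini-Hochberg, and calls were made under 0.05. The fit was tested on simulated data. No exact permutation test was used, since 3 arrays per group allow no p under 0.1. The number of arrays limits the precision. Members, lists and alternatives were chosen with earlier results of these data known. Named with values on every array are the 8 members of smallest p, the 4 largest differences in each direction, Prosbeta2, Prosbeta5 and tested paralogs. Of the partner lists the rule names the highest and lowest gene. Pomp, REG, Sem1, TER94, maf-S, Nedd8, RpL40 and RpS27A are named besides, a choice made with their values in view. Means of further subunits are added. Alternatives covered scaling, floor, filter, variance model, blocks, averaging of body wall 1 and 2 (whose aliases share a number) and each array left out.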

Additional observations from a re-analysis of the deposited data

How the results depend on the processing

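No proteasome probe set was called in any of 17 alternative fits, where the lowest adjusted p of a member was 0.329 to 0.743 (limma). The median log2 difference of the tested members, 0.046, ranged from -0.058 to 0.103 over the alternatives. For scale, the median log2 intensity of these members on an array had a pooled SD of 0.326 between arrays of one fragment. That SD describes the level of the set on single arrays and is not the error of the median difference. With each array brought to a common median, the median over all probe sets was -0.077, against 0.027 as deposited, and that of the members was -0.058. Of 312 values of the 17 probe sets named by rule, 28 changed sign, in 8 probe sets, none of them called. The 25 of 27 subunit intervals within a 2-fold difference became 26 with a trended and robust variance model and 23 with each array at a common median. They became 24 with the replicate number as a block, and 21 without body wall 1 or without wing/hinge 3. The count of 107 calls over all probe sets became 161 with a trended and robust variance model, 52 with the arrays blocked by brightest value, 49 with body wall 1 and 2 averaged, and 34 to 47 with 1 array left out, where fewer samples enter. It became 10 with the replicate number as a block. Whether the numbers pair the arrays was not settled. Deviations of same-numbered arrays correlated at 0.0596, -0.156 and 0.193 over 11698 probe sets, and 1 of the 3 pairs exceeded 0.1. Arrays of unlike number correlated at -0.243 to 0.178. Each deviation is taken from the mean of only 3 arrays, which ties these correlations to each other, so they cannot decide the question. Dim paralogs are limited by signal over background, since they lie among the control values.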
